A study of Mus musculus with 6 samples.

Results

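The 48 genes described here encode the BBSome, the intraflagellar transport (IFT) trains and the transition zone of the cilium. They were chosen by symbol from a list of ciliary genes, and all 48 were among the 15465 genes of the deposited tables. They fall into a BBSome group of 11 genes, an IFT group of 18 and a transition zone group of 19. Mkks, also known as Bbs6, was kept with the BBSome group. RNA sequencing was done on retina of C57BL6/J mice, all Wild Type, with no treatment, age or sex in the labels. By the sample titles there were 3 biological replicates of 2 technical replicates each, every library a pool of 5 mice, and each biological replicate (called a pool here) had 1 column of values. The source labels number the samples in another way, so the independence of the pools, and with it every SD and p-value, rests on the titles. There was 1 group and thus no treated or mutant sample to compare.

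Each photoreceptor carries a modified primary cilium, whose membrane is expanded into the stacked discs of the outer segment. Newly made proteins of the outer segment pass through a narrow connecting cilium, which corresponds to the transition zone of other cilia and acts as its gate. IFT trains move cargo along the axoneme, IFT-B complexes with kinesin towards the tip and IFT-A complexes with dynein back to the base. The BBSome is a coat-like adaptor that rides on these trains and retrieves membrane proteins. Mutations in genes of all these modules cause retinal degeneration, alone or within syndromes such as Bardet-Biedl, Joubert and Meckel syndromes.

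Levels are given in RPKM (reads per kilobase of transcript, scaled to the mapped reads of each library), as deposited, so that genes can be compared per length. The unit is inferred from the values, and the read depth is unknown. Summed RPKM lay between 249532 and 302634 in the 3 pools. Rod genes marked the tissue as labelled, since all 14 listed rod markers had means of 48.6 RPKM or more. Genes of neighbouring tissues were present too, and differed between pools. After scaling, 14 of 15 lens markers were highest in pool 3, 10 of 11 pigment epithelium markers in pool 1 and 6 of 6 muscle markers in pool 2. In pools 1, 2 and 3 the summed level was 4980, 3659 and 5441 RPKM for the lens list, 564, 539 and 308 for the pigment epithelium list and 8, 24 and 6 for the muscle list. Pigment epithelium, glia and neurons also bear cilia, and in whole tissue a change in cell number cannot be told apart from a change in RNA per cell.

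All 48 members reached 1 RPKM in every pool, against 77.5% of all genes. The members were chosen with earlier results of these data known, so the shares given here are descriptions and not tests. Of the further pathway genes described below, 8 of 8 BBSome-related, 13 of 13 IFT and 15 of 17 transition zone genes in the tables reached that level. A mean of 10 RPKM or more was reached by 26 members (54.2%), against 37.8% of all genes and 46.6% of genes that average at least 1 RPKM. The BBSome group was the most abundant, with a median of 21.8, 32.0 and 24.8 RPKM in pools 1, 2 and 3 and a mean of these medians of 26.2 ± 5.24 (SD, n = 3). Transition zone members had a median of 10.4 ± 0.245 RPKM and IFT members one of 8.34 ± 0.661 RPKM, both above the median of all genes, 6.09 ± 0.396 RPKM. Genes that average at least 1 RPKM, as every member did, had a median of 8.85 ± 0.607 RPKM. The IFT median was below that value in every pool. Above the median gene stood 10 of 11 BBSome members, 12 of 18 IFT members and 11 of 19 transition zone members. IFT and transition zone transcripts were thus nearer to the median gene than those of the BBSome.

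**Figure D1:**
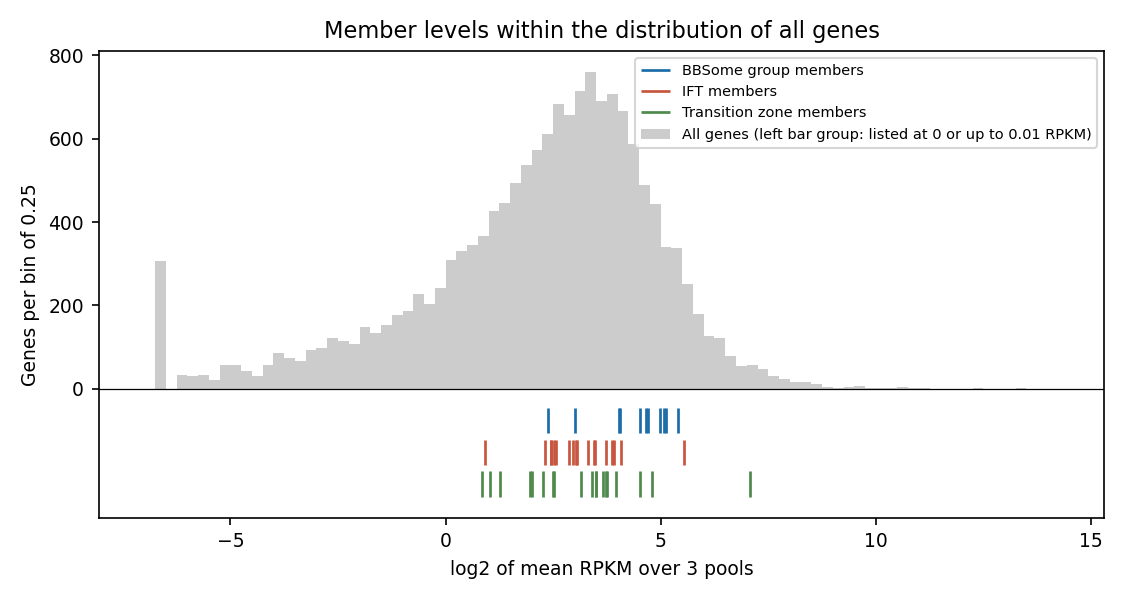
Grey bars count all genes by the log2 of their mean RPKM over 3 pools, in bins of 0.25, and the coloured ticks under the axis mark the 48 members by group. BBSome ticks lie to the right of the peak of the bars for all but 2 members, while IFT and transition zone ticks spread across it, with Rpgrip1 alone at the far right.

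Few neighbours in the order of levels stood clear of each other. When the 48 members were ranked by mean, 43 of 47 neighbouring pairs had ranges over the pools that overlapped. The 4 steps without overlap were those from Rpgrip1 to Ift20, from B9d2 to Ift122, from Wdr35 to Ift74 and from Tmem67 to Rpgr. In 15 of the 47 pairs the higher gene was higher in every pool, such as Bbs4 over Bbs7 (by 0.27 ± 0.08 on the log2 scale), so a small difference can hold within pools although the ranges overlap.

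**Figure D2:**
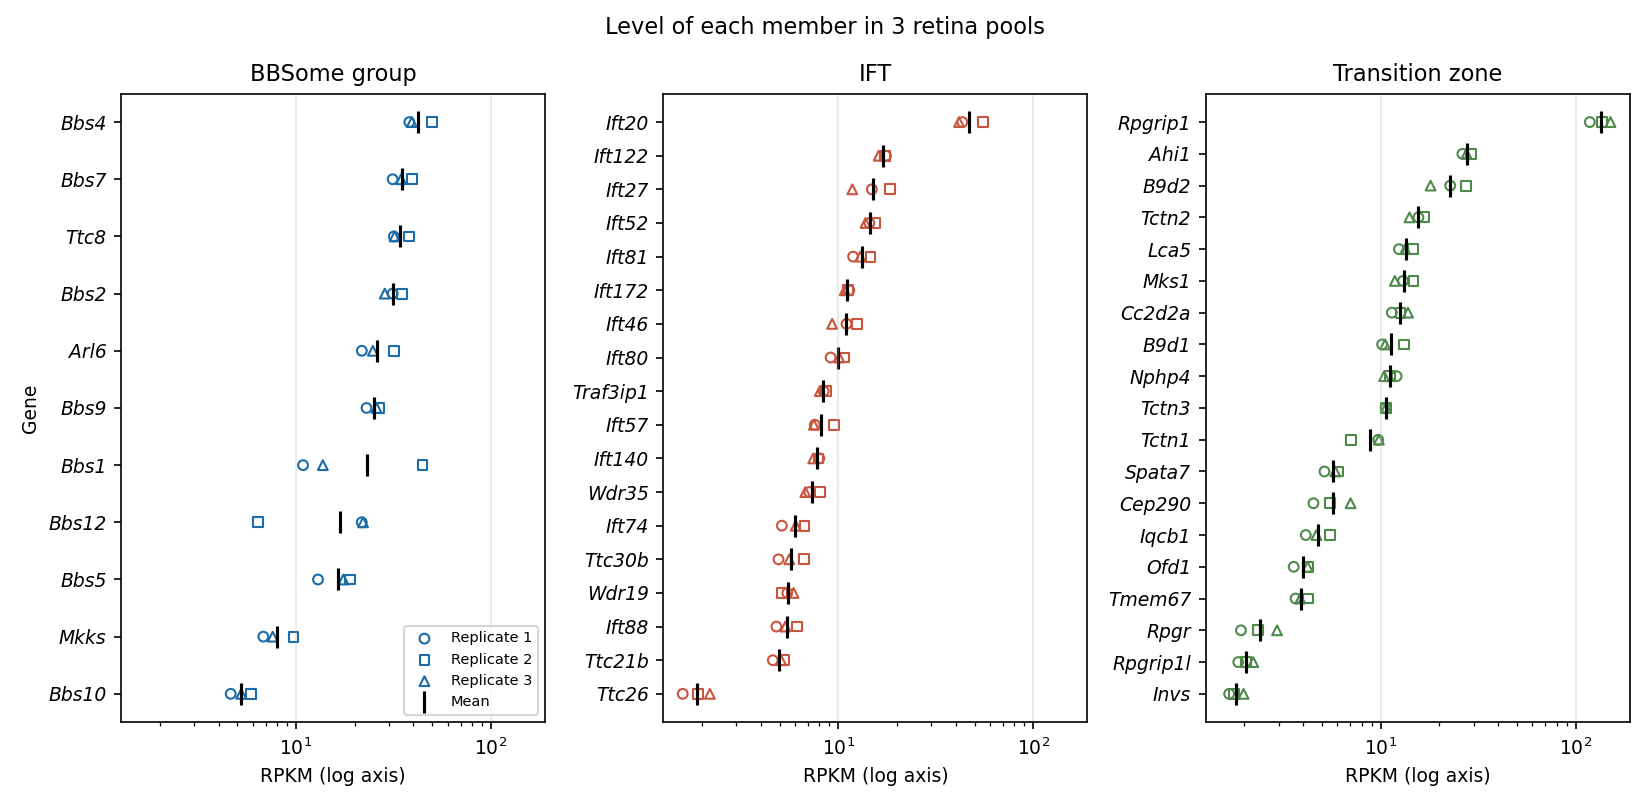
Each row is 1 member, open symbols are its RPKM in the 3 pools and the black tick is their mean, on a log axis shared by the panels. The symbols of most rows lie close together, those of Bbs1 and Bbs12 lie far apart, and Rpgrip1 stands above all other members.

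Promoters of the members were examined for sequence features they share. X-boxes are the binding sites of RFX transcription factors, which control ciliary genes in many animals. The core of 1 arm of the X-box, GTTGCC, was searched on both strands in RefSeq promoters (build GRCm38.p6), from 250 bases before to 50 bases after each start. Promoters were found for 43 members, all but Ift80, Ift81, Ift122, Ttc30b and Tmem67. This X-box core was present for 20 of the 43 members (46.5%), against 15.1% of 8940 expressed genes with a promoter in the table (expressed genes average at least 1 RPKM) and 12.5% of all 32851 promoters of this length. It was found for 3 of 11 BBSome, 8 of 14 IFT and 9 of 18 transition zone members. The windows of 30 bases below hold 8 of the 9 matches that lie wholly before the start, shown because the flanks of several resemble each other. The paired form described after them is in those of Bbs7, Ttc26, Mks1 and Tctn3. Capitals mark the X-box core, read along the strand of the gene.
Bbs7 (chr3:36613493-36613522, minus strand): gaatgcgccccgGTTGCCttggaaaccggc
Ift27 (chr15:78174082-78174111, minus strand): ggagaaggcgggttgatgatgGTTGCCagg
Ift57 (chr16:49699195-49699224, plus strand): gaggcgggtctgGTTGCCgtggtgaccggc
Ttc26 (chr6:38381479-38381508, plus strand): cctcccggcggcGTTGCCgtggaaacggag
Traf3ip1 (chr1:91494577-91494606, plus strand): gggcgcgcgtccGTTGCCaaggccgcgcgg
Ift140 (chr17:25015965-25015994, plus strand): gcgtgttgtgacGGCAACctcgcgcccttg
Mks1 (chr11:87853179-87853208, plus strand): gccagcgtctccGTTGCCaggggaacgagg
Tctn3 (chr19:40612354-40612383, minus strand): aggctcccagcgGTTGCCaggtaacgggaa

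In several of these windows a second arm follows after 1 or 2 bases. This paired form was searched after the windows had been seen, as GTTGCC, then 1 or 2 bases of any kind, then GGNAAC, on both strands, and it contains the X-box core. It was present for 7 of 43 members (16.3%), against 0.582% of the 8940 expressed genes. Because the form was taken from windows of these same members, their share is not independent of that choice. The 7 were Ahi1, Bbs7, Ift57, Mks1, Tctn1, Tctn3 and Ttc26, and for Ahi1, Ift57 and Tctn1 it is in none of the windows shown. Holders of the paired form ranged from Ttc26, the lowest IFT member, to Bbs7 at 35.0 RPKM, and its relation to level was not tested. For the X-box core, members with a match had a median of 11.1, 12.2 and 10.7 RPKM in pools 1, 2 and 3, and members without one 6.79, 6.70 and 7.59 RPKM. Among RFX genes themselves, Rfx1 had 24.0 ± 1.40 RPKM (SD, n = 3), Rfx5 8.23 ± 0.393, Rfx7 4.71 ± 0.480, Rfx2 3.56 ± 0.271 and Rfx3 2.25 ± 0.319.

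**Figure D3:**
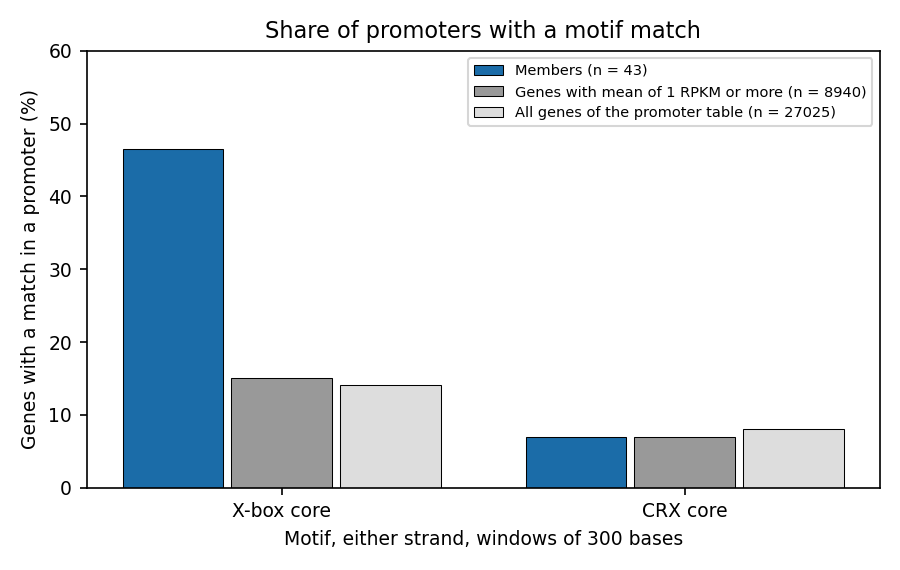
Bars give the percentage of genes with at least 1 match in a promoter window of 300 bases, for the members, for expressed genes (those that average at least 1 RPKM) and for all genes of the promoter table. The X-box core stands at 46.5% of members against 15.1% of expressed genes, and the CRX core at 6.98% against 7.01%.

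The 7 core subunits of the BBSome among the members spanned a 2.57-fold range of means, from Bbs5 to Bbs4, with or without Bbs1. With the small subunit Bbip1, which is not a member and had 6.70, 9.37 and 8.01 RPKM, the range was 5.28-fold. Bbs4, a subunit that binds the satellite protein PCM1, had 38.1, 49.7 and 39.3 RPKM in pools 1, 2 and 3 (mean 42.4 ± 6.40, SD, n = 3). Bbs7, which forms a pair of propeller subunits with Bbs2, had 31.3, 39.2 and 34.6 RPKM (mean 35.0 ± 3.95). Ttc8 (BBS8), built of tetratricopeptide repeats, had 31.8, 38.1 and 32.0 RPKM (mean 34.0 ± 3.58). Bbs7 overlapped with both others, Bbs4 stayed just above Ttc8, and pool 2 was the highest for each. Bbs2 had 31.6 ± 3.17 RPKM (SD, n = 3) and Bbs9, the scaffold of the complex, 25.2 ± 1.98 RPKM. Bbs7 exceeded Bbs2 by 0.15 ± 0.14 on the log2 scale, with a higher value in 2 of 3 pools, so that this pair was not apart. Bbs5, with its membrane-binding domains, had the lowest mean of the 7, with 13.0, 19.0 and 17.5 RPKM (mean 16.5 ± 3.13). Bbs4 exceeded Bbs5 in every pool, 2.94-fold, 2.62-fold and 2.24-fold.

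Arl6 (BBS3) is the small GTPase that recruits the BBSome to membranes, and it stood within the range of the core at 21.8, 32.0 and 24.8 RPKM (mean 26.2 ± 5.24). Ift27, the Rab-like GTPase of the IFT-B complex that links trains to BBSome export, had 14.9, 18.5 and 11.8 RPKM (mean 15.0 ± 3.33). Arl6 thus exceeded Ift27 in 3 of 3 pools, by 0.80 ± 0.26 on the log2 scale (SD, n = 3), and their ranges did not overlap.

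Of the chaperonin-like proteins that assemble the BBSome, Mkks and Bbs10 were lower than the 7 core subunits in every pool, and Mkks was at the level of Bbip1. Mkks had 6.79, 9.71 and 7.59 RPKM in pools 1, 2 and 3 (mean 8.03 ± 1.51), and Bbs10 had 4.62, 5.89 and 5.23 RPKM (mean 5.25 ± 0.635). Mkks exceeded Bbs10 in 3 of 3 pools, by 0.60 ± 0.10 on the log2 scale. The median of the 7 core subunits exceeded that of the 3 chaperonin-like genes by 2.22 ± 0.33 on the log2 scale, a factor of 4.64, in 3 of 3 pools. An exact two-sided sign-flip test over 3 pools gave p = 0.25, the smallest it can give. The third chaperonin-like gene, Bbs12, is counted in this median but its row is uncertain. In pool 2 its value, 6.37 RPKM, was the median of the chaperonin-like genes. Of the exon bases of Mkks, 29.7% are shared with an overlapping gene model of the same strand (GENCODE M21), so its level is uncertain as well.

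Bbs1 and Bbs12 stood apart from all other members in their spread. Bbs1, the subunit that carries the most frequent Bardet-Biedl mutation in people and binds Arl6, had 10.9, 44.6 and 13.7 RPKM in pools 1, 2 and 3 (mean 23.1 ± 18.7). Bbs12 had 21.7, 6.37 and 22.1 RPKM (mean 16.7 ± 8.97). Pool 2 was thus the highest for Bbs1 and the lowest for Bbs12, by several times, while pools 1 and 3 lay close together for both. In a test across the 12562 expressed genes, the variance of each gene over the pools was set against that of genes of like abundance (limma, robust prior, Benjamini-Hochberg). Both passed, with adjusted p = 0.00486 for Bbs1 and 0.00241 for Bbs12, and an SD over pools of 0.99 and 1.13 on the log2 scale. They were the 2 members called of 48, against 5.45% of all genes tested. Without pool 2 neither was called, with adjusted p = 0.914 and 0.992 (limma). Without pool 1 Bbs1 was not called either (adjusted p = 0.0688, limma), and a non-robust prior called 0 members and 0 genes, with 2 members and 704 genes at an unadjusted p under 0.05.

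**Figure D4:**
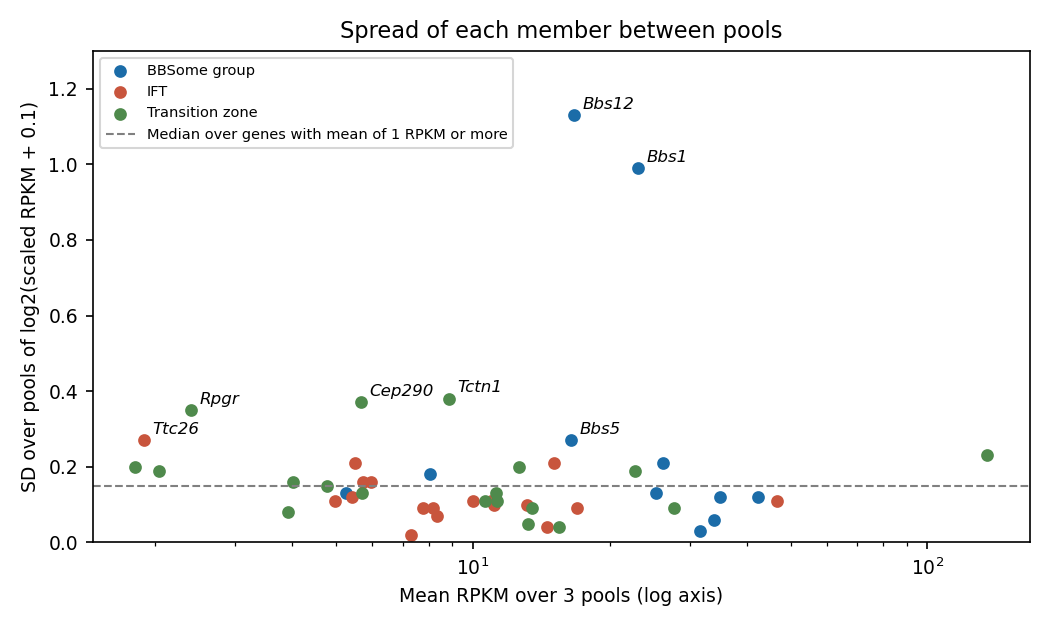
Each point is 1 member, placed by its mean RPKM and by the SD of its log2 values over 3 pools, and the dashed line is the median SD of expressed genes (0.15). Bbs12 at 1.13 and Bbs1 at 0.99 lie far above the rest, of which Tctn1 is the highest at 0.38.

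Both rows belong to a set that varied throughout the tables. Their symbols are an extension of one another by a digit (Bbs1, Bbs10 and Bbs12). Of the 2088 tested genes whose symbol extends another symbol in this way, or is extended so (digit-extended symbols), 629 (30.1%) were called. When all such genes were left out, 98 of 10474 genes (0.936%) and 0 of the 42 remaining members were called, with 3 of the 42 and 639 genes at an unadjusted p under 0.05. Whether the values listed for Bbs1 and Bbs12 belong to these genes was not tested, and their means are therefore not interpreted singly. Both rows do enter the BBSome median, the order of levels and the difference of core BBSome from chaperonin-like genes. Without digit-extended symbols that median was 29.3 ± 3.59 RPKM. The difference was then 2.02 ± 0.15 on the log2 scale, with Mkks as the only chaperonin-like gene. The muscle list was highest and the lens list lowest in pool 2, and their part in these 2 rows was not tested. Of the other members with such symbols, Bbs10 is given above, and 3 were IFT genes with little spread. Wdr19 had 5.47, 5.13 and 5.89 RPKM, Wdr35 7.09, 8.05 and 6.77 RPKM, and Ttc30b 4.93, 6.69 and 5.60 RPKM.

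Among IFT genes 1 member stood out. Ift20, an IFT-B subunit that also resides at the Golgi and takes part in the export of ciliary membrane proteins, had 43.3, 55.1 and 41.6 RPKM in pools 1, 2 and 3 (mean 46.7 ± 7.37). It exceeded the next IFT gene, Ift122, by 2.47-fold, 3.19-fold and 2.58-fold in these pools, without overlap of their ranges. Ift122, an IFT-A subunit, had 17.5, 17.3 and 16.1 RPKM (mean 17.0 ± 0.762), the highest level of its complex, and Ift27 was the third IFT gene.

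The rest of IFT-A, the complex of retrograde transport and of membrane protein entry, was lower. Ift140 had 7.78 ± 0.303 RPKM (SD, n = 3), Wdr35 7.30 ± 0.666, Wdr19 5.50 ± 0.381 and Ttc21b 4.61, 5.25 and 5.08 RPKM by pool (mean 4.98 ± 0.332). Ift122 exceeded Ttc21b, the gene of IFT139, in every pool, by 1.75 ± 0.14 on the log2 scale. The subunits of this complex thus spanned a 3.41-fold range of means, and their SD over pools was at most 0.21 on the log2 scale.

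The IFT-B core had a 7.94-fold range of means, and one of 2.77-fold without its lowest gene, Ttc26. Ift52, an organiser of the core, had 14.5 ± 0.789 RPKM (SD, n = 3), Ift81 13.2 ± 1.38 and Ift46 10.9 ± 1.60. Ift81 and Ift74 form a tubulin-binding pair, and Ift81 exceeded Ift74 (5.96 ± 0.789 RPKM) in 3 of 3 pools by 1.13 ± 0.06 on the log2 scale. Ift88, whose loss leaves photoreceptors without proper outer segments, had 4.81, 6.13 and 5.35 RPKM (mean 5.43 ± 0.664). The lowest IFT gene was Ttc26 (IFT56), at 1.59, 1.90 and 2.19 RPKM (mean 1.89 ± 0.30), and Ift20 exceeded it 27.2-fold, 29.0-fold and 19.0-fold. Ttc30b (IFT70) had 5.74 ± 0.888 RPKM, but it shares sequence with near-identical copies, of which Ttc30a1 had 3.46 ± 0.580 RPKM, so the split between them is uncertain.

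Peripheral IFT-B subunits other than Ift20 lay close together. Ift172, the largest of them by protein, had 11.1 ± 0.301 RPKM (SD, n = 3), Ift80 9.99 ± 0.802, Traf3ip1 (IFT54) 8.35 ± 0.299 and Ift57 8.19 ± 1.14. The median of the 13 IFT-B genes exceeded that of the 5 IFT-A genes by 0.41 ± 0.05 on the log2 scale, a factor of 1.33 (p = 0.25, exact sign-flip test, the smallest 3 pools can give). This direction rests on the division by transcript length, and with lengths multiplied back it turned to -0.15 ± 0.08 on the log2 scale.

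Transition zone genes were led by a gene of the photoreceptor connecting cilium. Rpgrip1, the scaffold that anchors Rpgr there, had 118, 136 and 151 RPKM in pools 1, 2 and 3 (mean 135 ± 16.4) and was the 223rd gene of 15465 by mean level. Its mean lay above that of 98.6% of genes, and it was the 1 member with a mean of 100 RPKM or more, a level reached by 2.11% of genes. Its opposite-strand neighbour Supt16 overlaps 17.1% of its exon bases (GENCODE M21), and had 14.2, 15.2 and 17.4 RPKM under the symbol Supt16h; the use of strand in counting is not stated.

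Partners and relatives of Rpgrip1 were far lower. Rpgr, the GTPase regulator whose mutations cause X-linked retinitis pigmentosa, had 1.92, 2.34 and 2.94 RPKM (mean 2.40 ± 0.513), and Rpgrip1 exceeded it 61.7-fold, 58.2-fold and 51.4-fold in pools 1, 2 and 3. The retina uses an Rpgr isoform with its own last exon, and the transcript model behind the deposited value is not given in the sources used here. Rpgrip1l, the paralogue of Rpgrip1 that is found in cilia of many cell types, had 1.86, 2.04 and 2.22 RPKM (mean 2.04 ± 0.180). Rpgrip1 thus exceeded its paralogue by 5.98 ± 0.06 on the log2 scale in 3 of 3 pools.

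The upstream sequences of this pair are shown because the levels differ so widely. Both are the 250 bases before the start in RefSeq (GRCm38.p6), and capitals mark a match to TAATCC on either strand, the core of sites bound by CRX, a transcription factor of photoreceptors.
Rpgrip1 (chr14:52110653-52110902, plus strand): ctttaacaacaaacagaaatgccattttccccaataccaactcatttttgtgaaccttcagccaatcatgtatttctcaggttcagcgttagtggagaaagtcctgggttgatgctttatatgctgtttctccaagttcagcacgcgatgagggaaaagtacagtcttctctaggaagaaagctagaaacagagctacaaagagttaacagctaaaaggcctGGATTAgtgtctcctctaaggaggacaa
Rpgrip1l (chr8:91313223-91313472, minus strand): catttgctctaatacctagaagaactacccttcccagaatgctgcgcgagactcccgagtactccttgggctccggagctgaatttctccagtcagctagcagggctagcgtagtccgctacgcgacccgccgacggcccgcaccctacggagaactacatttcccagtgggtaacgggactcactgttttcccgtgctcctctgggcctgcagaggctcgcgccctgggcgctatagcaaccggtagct

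The window of Rpgrip1 holds 1 such match, 28 bases before the start, and the window of Rpgrip1l holds none. Bases G and C make up 41.6% of the first and 59.6% of the second. The CRX core is common, with a match for 7.01% of the 8940 expressed genes. Among the 43 members with a promoter it was found for 3, namely Rpgrip1, Bbs1 and Ttc26 (6.98%). Of these, Rpgrip1 was the highest member and Ttc26 the lowest IFT gene, and a relation of the match to level was not tested. Crx itself had 304 ± 21.8 RPKM (SD, n = 3).

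The other genes of the connecting cilium were of intermediate level. Lca5 (lebercilin), which binds IFT proteins, had 13.5 ± 1.15 RPKM (SD, n = 3), and Spata7, which holds Rpgrip1 in place along the connecting cilium, had 5.69 ± 0.484 RPKM. The median of the 4 connecting cilium genes differed from that of the 9 MKS module genes by -0.46 ± 0.05 on the log2 scale (p = 0.25, exact sign-flip test, its smallest value), but the mean of log2 values gave 0.03 ± 0.16. With Rpgrip1 at one end and Rpgr at the other, a 56.4-fold range, neither summary describes this small set well.

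Scaffold proteins of the gate, including those of nephronophthisis, were the lowest set. Their median was 4.39 ± 0.505 RPKM (SD, n = 3), and 1 of 6 exceeded the median gene. That gene was Nphp4, at 11.2 ± 0.833 RPKM. Cep290, which bridges the microtubules to the ciliary membrane and whose mutations cause Leber congenital amaurosis, had 4.52, 5.50 and 7.01 RPKM (mean 5.68 ± 1.25). Iqcb1 (NPHP5), a partner of Cep290, had 4.77 ± 0.684 RPKM, and Ofd1, a protein of the centriole ends, 4.01 ± 0.372 RPKM. Invs (inversin) was the lowest of all 48 members at 1.67, 1.77 and 1.98 RPKM (mean 1.81 ± 0.158), and its range overlapped those of Ttc26 and Rpgrip1l.

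Genes of the MKS module, the membrane-associated complex mutated in Meckel and Joubert syndromes, had a median of 12.1 ± 0.930 RPKM (SD, n = 3). Ahi1 (jouberin) led with 26.3, 29.0 and 27.6 RPKM (mean 27.6 ± 1.38). The B9-domain proteins B9d1, B9d2 and Mks1 act in 1 complex. B9d2 had 22.8, 27.5 and 18.0 RPKM (mean 22.8 ± 4.71), B9d1 10.2, 13.2 and 10.5 RPKM (mean 11.3 ± 1.64) and Mks1 13.0, 14.7 and 11.8 RPKM (mean 13.2 ± 1.46). B9d2 was the highest of the 3 in every pool, by 0.99 ± 0.20 on the log2 scale over B9d1 and by 0.77 ± 0.15 over Mks1, while B9d1 and Mks1 overlapped.

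The tectonics, secreted or membrane-bound proteins of this module, followed the order Tctn2, Tctn3 and Tctn1 in every pool. Tctn2 had 15.6, 16.7 and 14.1 RPKM (mean 15.5 ± 1.32), Tctn3 10.6, 10.7 and 10.6 RPKM (mean 10.6 ± 0.0300) and Tctn1 9.72, 7.03 and 9.79 RPKM (mean 8.85 ± 1.57). Tctn2 exceeded Tctn3 by 0.53 ± 0.12 on the log2 scale. The low value of Tctn1 in pool 2 gave it the largest SD outside Bbs1 and Bbs12 (0.38 on the log2 scale), but the gene was not called as varying (adjusted p = 0.505, limma). Its exons are shared to 27.5% with Hvcn1 on the other strand, which had 3.06, 4.83 and 4.86 RPKM, so its level is uncertain. The remaining genes were Cc2d2a, a coiled-coil protein of the gate, at 12.6 ± 1.21 RPKM, and Tmem67 (meckelin), a receptor-like membrane protein, at 3.92 ± 0.294 RPKM.

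No member other than Bbs1 and Bbs12 was called as varying. The median SD of the 48 members was 0.13 on the log2 scale, against 0.15 for expressed genes. As deposited, 34 of 48 members were highest in pool 2, against 64.3% of expressed genes. After the pools were scaled, 28 were highest in pool 3, 16 in pool 2 and 4 in pool 1, against 34.7% of those genes highest in pool 3 and 35.3% in pool 2. Cep290, Rpgr, Rpgrip1, Rpgrip1l, Invs, Cc2d2a and Ttc26 were among those highest in pool 3 under both scales. None of these 7 was called, with adjusted p between 0.643 and 0.993 (limma).

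Transcript length moved with these differences. Over the 41 members with a length and without a digit-extended symbol, the log2 difference of pool 3 from pool 2 correlated with log2 length (Pearson 0.67, Spearman 0.66, given as a description because genes of a library share its making). The same held over 10337 genes of that kind (Pearson 0.46, Spearman 0.63). In these members the median difference was -0.12 for 8 genes under 2000 bases and 0.20 for 14 genes of 4000 bases or more, and in all such genes -0.20 and 0.21. Against pool 1 the relation of pool 3 was weaker (Pearson 0.31, Spearman 0.21 over the 41 members), and the medians were 0.19 for the 8 short members, of which 2 were lower in pool 3, and 0.27 for the 14 long ones. All such genes had medians of -0.07 and 0.10 in that contrast. Cep290, of 8006 bases, was higher in pool 3 than in both other pools. The 2 short members lower in pool 3 than in both others were Ift27 and B9d2, of 1013 and 1008 bases. With a trend on length removed, the adjusted p of Cep290 went from 0.643 to 0.993 (limma). The part of length, depth or RNA quality in the pool differences was not tested further.

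**Figure D5:**
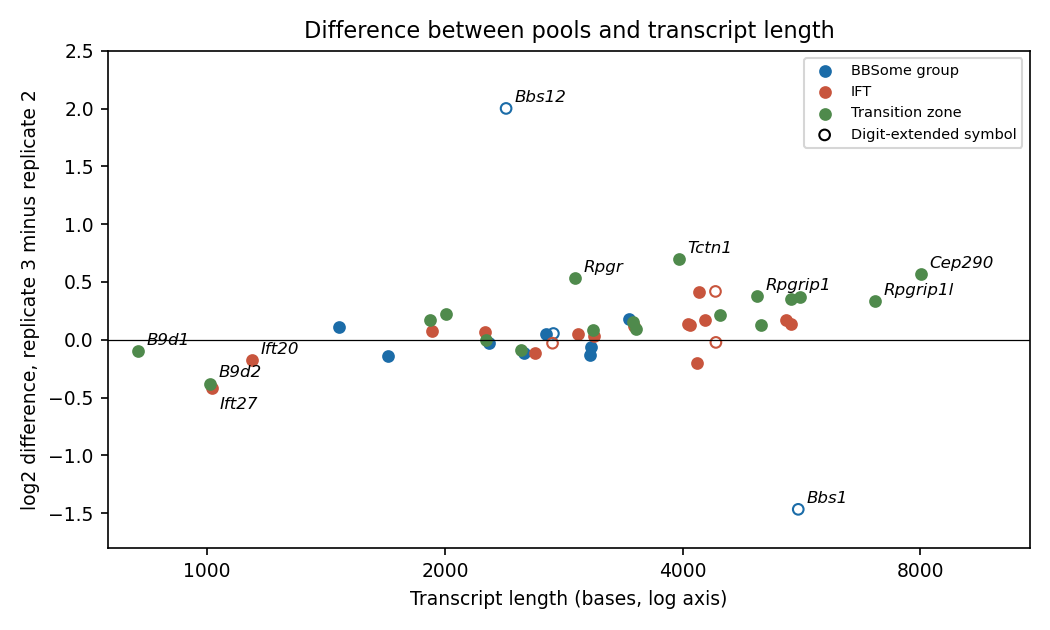
Each point is 1 of 47 members with a known transcript length, plotted against the log2 difference of replicate (pool) 3 minus replicate 2 after scaling, and open circles are digit-extended symbols. Short genes such as Ift27 and B9d2 lie under 0 and long genes such as Cep290 above it, with Bbs12 and Bbs1 off this trend.

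Further genes of these pathways were taken from lists by role, not by value. Of other BBSome-related genes 8 were in the tables, with a median of 15.6 ± 2.23 RPKM (SD, n = 3). Ccdc28b, a modifier of the disease, had 36.5 ± 6.86 RPKM, Trim32 35.8 ± 14.1 and Rab3ip, the exchange factor for Rab8, 23.3 ± 3.58. Bbip1 had 8.03 ± 1.34 RPKM. None of the 8 was called as varying, but Trim32, with a digit-extended symbol, had 44.6, 43.2 and 19.5 RPKM (adjusted p = 0.0761, limma). It was called without pool 2 (adjusted p = 3.77e-05, limma) and without scaling (adjusted p = 0.00935, limma).

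Of the other IFT genes and motors 13 of 16 listed were in the tables, with a median of 13.8 ± 0.464 RPKM (SD, n = 3). Tulp1, a tubby-like protein of photoreceptors, was far above them at 512 ± 74.4 RPKM. The subunits of kinesin-2, the anterograde motor, lay lower, with Kif3b at 21.7 ± 1.89, Kifap3 at 21.5 ± 1.57, Kif3c at 14.5 ± 1.43 and Kif3a at 14.3 ± 1.20 RPKM. Between them stood the IFT-B genes Rabl5 (IFT22) at 16.2 ± 1.83 and Cluap1 (IFT38) at 15.9 ± 2.07 RPKM. Kif17, a second kinesin-2, had 1.66 ± 0.129 RPKM, and Dync2h1, the heavy chain of the retrograde motor, 2.65 ± 0.543 RPKM. None of the 13 was called.

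Of the other transition zone and ciliary base genes 17 of 19 listed were in the tables, with a median of 9.31 ± 2.00 RPKM (SD, n = 3). Rp1, a microtubule protein of the photoreceptor axoneme, had 89.0 ± 12.2 RPKM, Cep164, a protein of the distal appendages, 36.3 ± 1.01 and Tmem138 26.2 ± 2.12. Tmem17 was the 1 gene under 1 RPKM, with 0.74, 0.05 and 0.43. It has a digit-extended symbol and was too low to be tested, so its level is uncertain. Of the 16 tested, 3 were called as varying, against 5.45% of all genes tested and 30.1% of those with digit-extended symbols. All 3 had digit-extended symbols and pool 2 apart, as for Bbs1 and Bbs12. These were Tmem218 (21.2, 0.09 and 18.6 RPKM), Tmem216 (7.78, 49.3 and 7.51) and Tmem231 (8.33, 45.5 and 7.40), with adjusted p = 1.81e-05, 0.000621 and 0.000883 (limma). Without pool 2 none of these 3 was called.

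Genes of motile cilia served as a contrast, because photoreceptor cilia do not beat. The 13 of 18 listed genes in the tables had a median of 0.933 ± 0.238 RPKM (SD, n = 3). Of these 13, 5 had a mean under 1 RPKM, against 0 of 48 members and 2903 of all 15465 genes. Foxj1, the master regulator of motile cilia, had 3.39 ± 0.344 RPKM and Dnaic2, a dynein intermediate chain, 3.88 ± 0.255 RPKM. The 5 genes under 1 RPKM were Spef2, Ccdc40, Rsph1, Hydin, the central pair gene, with 0.06, 0.06 and 0.07 RPKM, and Rsph4a, a spoke gene, with 0.01 RPKM in pool 1 and listed at 0 in both others. The highest was Ccdc114, with 10.9, 0.66 and 10.3 RPKM, and its value was the median of the list in pool 2. Of the 13 genes 4 had digit-extended symbols, namely Ccdc114, Ccdc113, Ccdc39 and Rsph1. Of the 8 tested, 3 were called as varying, against 5.45% of all genes tested and 30.1% of those with digit-extended symbols. These were Ccdc114, Ccdc113 (1.25, 6.4 and 1.09 RPKM) and Ccdc39 (1.3, 0.28 and 1.51 RPKM). Their adjusted p was 0.000106, 0.00426 and 0.00782 (limma).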

How the data were processed

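Retina RNA of 6 samples was deposited as 3 columns of values, 1 for each biological replicate. Per the labels both technical replicates name the same table, and how they were combined is not stated. The deposited values are taken as RPKM, an inference from the values: multiplied by transcript length in kb they sum to between 729445 and 829080. Per the submitters' processing notes, the authors used GSNAP, HTSeq and build mm9; no source used here gives versions, annotation, filters or strand use. The tables each had 15468 rows, and 3 symbols on 2 identical rows were kept once. The smallest values above 0 equal the rounding step (0.01), so steps of single reads could not be read, the depth is unknown and no counting interval is given.

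The members and lists were chosen with earlier results of these data known. Mean and SD are over 3 pools, on deposited RPKM. Tests and pool differences used log2(RPKM + 0.1), for genes that average at least 1 RPKM (expressed genes), after trimmed-mean scaling (trims at each end of 30% for log ratios and 5% for mean levels; factors 0.984, 1.090 and 0.932). Folds on the log2 scale understate differences of low genes. Each gene's variance was set against limma's robust trended prior in an F test (limma 3.58.1, statmod 1.5.0, R 4.3.3), with Benjamini-Hochberg adjustment over all genes at 0.05. P-values measure only the spread between these pools. The test was checked on simulated data with known changes, for the 10474 genes without digit-extended symbols only. When 1 pool was displaced by 1 on the log2 scale, 55.2% of such genes were called, and 100% at 2 or 3. A gene not called can therefore still differ between pools. The simulated spread came from the fitted prior, and the fit on all genes was not checked in this way.

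Lengths (median of GENCODE M21 transcripts linked to RefSeq) were found for 98.6% of genes by symbol. Since that annotation is of GRCm38, it served only for lengths and overlaps, and promoters came from RefSeq (GRCm38.p6). Digit-extended symbols equal another symbol of the tables or RefSeq followed by a digit and any further characters, or are such a shorter symbol (2656 genes). Every member is named. Values in each pool are given for the 3 highest and 3 lowest of each group, members called as varying, digit-extended symbols and paralogues, and for others where a result turns on them.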

Additional observations from a re-analysis of the deposited data

How the results depend on the processing

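No comparison between groups, paired or not, was possible because there was 1 group. Pairing was used only for differences between genes or sets of genes within a pool. The robust prior was chosen with earlier results known. The number of members called as varying (2) was 0 without digit-extended symbols, which leaves out both genes, 0 in that fit with a trend on length removed as well (chosen after seeing the data), 0 with a non-robust prior and from 0 to 2 with a replicate left out. For all genes (685) these settings gave 98, 49, 0 and from 306 to 479, and for the other pathway genes (3) 0, 0, 0 and from 1 to 3. The IFT median (8.34 RPKM) was 9.71 without digit-extended symbols and 11.1 as a mean of members. That of the transition zone (10.4 RPKM) was 16.5 as a mean and 10.1 with Mkks included. Multiplied by length, the log2 distance from the median gene went from 0.45 to 0.76 for IFT and from 0.78 to 0.31 for the transition zone. The difference of IFT-B from IFT-A (0.41) reversed to -0.15 when multiplied by length and was 0.27 as a mean of log2 values, and that of core BBSome from chaperonin-like genes (2.22) was 1.69 as such a mean. The difference of connecting cilium from MKS genes (-0.46) was -0.42 with a pseudocount of 1, -0.33 multiplied by length and reversed to 0.03 as a mean of log2 values. Why these values moved was not tested. Scaling, the pseudocount, the filter on low values and the trend on length moved the count of all genes to between 565 and 794 and left that of members at 2, and no member's read depth could be judged.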
